A study of Mus musculus with 6 samples.

Results

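The subject is a set of 8 microRNAs that are best known from the nervous system, read in whole mouse aortas: miR-9, miR-124, miR-137, miR-138, miR-219, miR-128a and both arms of miR-129 (miR-129-3p, miR-129-5p). They were taken by assay name, without star strands, from the 517 microRNA assays of the arrays, and all 8 were on the arrays. The aortas came from 6 male mice that lacked Apoe (Apoe-/-), a background in which a fat-rich diet leads to atherosclerosis. All 6 carried LysM-Cre, a recombinase driven from the lysozyme M locus, which is active in macrophages, monocytes and neutrophils. In 3 mice both Dicer alleles were floxed (LysM-Cre, Dicer flox/flox, Apoe-/-; here Dicer_KO), and 3 littermates had wild-type Dicer (LysM-Cre, Dicer wt/wt, Apoe-/-; here Dicer_WT). The mice were 6 to 8 weeks old when a diet with 21% crude fat began, and the aortas were taken after 12 weeks of it. Dicer is the endonuclease that cuts microRNA precursors into the mature form. Its loss in any cell of the wall was not measured on these arrays.

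Most of these microRNAs are abundant in brain and scarce in other organs, and they take part in making and maintaining neurons and glia. The vessel wall holds few nerve cell bodies. Its outer layer carries sympathetic and sensory nerve fibres with their Schwann cells, and perivascular ganglia may come along when an aorta is dissected. Several of the 8 are also known from other cells, so an assay name does not give the cell of origin. The arrays read no nerve-specific mRNA, and no cell type was sorted. In such bulk RNA, fewer cells of a type and less RNA per cell cannot be told apart.

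The mature sequences show that the 8 assays are not one family. RefSeq sequences of build GRCm38.p6 were matched to 7 of the 8 through the current names of the old assay names. They are printed 5′ to 3′ with the seed, bases 2 to 8, in capitals, because the seed sets which messages a microRNA pairs with. Those of the other arm of the miR-9 and miR-138 hairpins, which the arrays held as star assays, stand beside them.
miR-9: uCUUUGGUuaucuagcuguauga
miR-9*: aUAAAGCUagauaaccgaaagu
miR-137: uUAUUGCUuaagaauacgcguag
miR-138: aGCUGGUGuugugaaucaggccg
miR-138*: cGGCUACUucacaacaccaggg
miR-219: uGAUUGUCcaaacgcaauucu
miR-128a: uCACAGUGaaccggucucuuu
miR-129-3p: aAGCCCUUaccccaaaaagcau
miR-129-5p: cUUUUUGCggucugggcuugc
The 7 matched members had 7 distinct seeds, and no other mature sequence in the RefSeq table had any of these. That table gave no match for miR-124, so a shared seed could be missed. The seed of miR-129-3p also stands in a second hairpin, Mir129-1, as described below.

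Several of these sequences come from more than 1 place in the genome, so an assay sums over loci. Genes are named below where their coordinates overlap a hairpin. Their strand was not compared, so an overlap alone does not make a gene the host of a hairpin. The 3 hairpins of miR-9 lie at chr3:88215598-88215686, chr7:79505264-79505353 and chr13:83738814-83738885, all on the plus strand and inside genes of long noncoding RNAs. The 2 hairpins of miR-128a lie in the protein-coding genes R3hdm1 (chr1:128202361-128202430, plus strand) and Arpp21 (chr9:112118636-112118711, minus strand). Those of miR-138 lie at chr9:122682876-122682974, where no other gene is listed, and in Nup93 (chr8:94324311-94324381), both on the plus strand. Those of miR-219 lie on the minus strand at chr17:34024983-34025092 and within the coordinates of Cercam (chr2:29845631-29845727). miR-137 has 1 hairpin, at chr3:118433857-118433929 on the plus strand. miR-129-5p comes from 2 hairpins, Mir129-1 (chr6:29022619-29022691, plus strand) and Mir129-2 (chr2:94241364-94241453, minus strand, in the long noncoding RNA gene Mir670hg), and the assay name miR-129-3p stands for the 3′ arm of Mir129-2. The first 19 of the 22 bases of that arm stand in Mir129-1 as well, and whether the assay tells the 2 hairpins apart was not tested.

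Each aorta was read once per assay by TaqMan PCR after reverse transcription and preamplification. The reading is a threshold cycle (Ct): 1 cycle less stands for about 2 times the RNA, and 40 marks a well without product. A well below Ct 35 was taken as detected. By this rule 7 of the 8 were detected in all 6 aortas and miR-124 in 5. Relative quantities are the authors' deposited values, scaled within an aorta and card to its reference RNAs and to a Dicer_WT geometric mean of 1. Log2 values below are log2 of these, and their differences are Dicer_KO minus Dicer_WT. As a check of the tissue, the smooth muscle microRNA miR-145 had the lowest mean Ct of the 377 assays tested, between 11.53 and 11.98 in Dicer_WT and between 11.91 and 12.74 in Dicer_KO aortas. Detected assays numbered 374 to 378 per Dicer_WT and 349 to 366 per Dicer_KO aorta.

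None of the 8 passed the threshold between genotypes, and they did not move together. In limma over the 377 assays tested, with Benjamini-Hochberg adjusted p under 0.05 as the threshold, 0 of the 8 were called lower and 0 higher. The background was 7 assays called lower, 1.86% of those tested, and 0 called higher, 0.0%. Without Dicer_KO replicate 1 that background was 55 lower and 9 higher, and miR-129-3p was then among the higher ones. At an unadjusted p under 0.05, miR-219 and miR-128a were lower (2 of 8, against 24.4% of all assays) and miR-129-3p was higher (1 of 8, against 2.39%). These 3 were also those whose groups did not overlap. Over all assays, Dicer_KO lay wholly below Dicer_WT for 32.6% and wholly above for 2.39%, so 2 of 8 on the lower side is no more than the background. The 8 log2 fold changes had a median of 0.00 with 4 above 0, whereas the median over all assays was -0.42 with 21.8% above 0. The median of the 8 was not a stable figure, since it was 0.68 without Dicer_KO replicate 3. That aorta was the lowest of the 6 for 5 of the 8 members and for 197 of the 377 assays (52.3%). Dicer_KO replicate 1 was the highest of the 6 for 4 of the 8 members, against 8.22% of all assays. These were miR-9, miR-124 and both miR-129 arms.

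**Figure D1:**
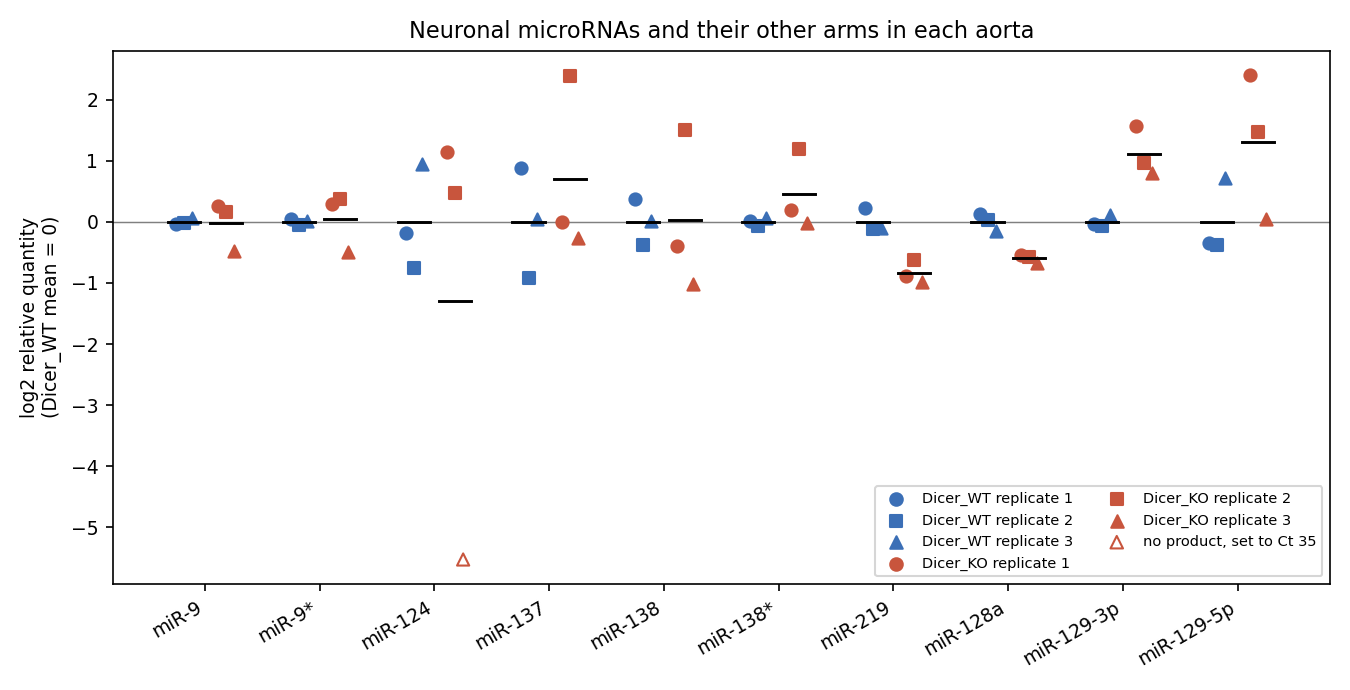
Log2 relative quantity (vertical axis, Dicer_WT mean at 0) of the 8 neuronal microRNAs and 2 other arms in each of the 6 aortas; blue marks Dicer_WT, red Dicer_KO, marker shapes the replicate, black bars the group means of 3 aortas. The groups separate for miR-219, miR-128a and miR-129-3p, Dicer_KO replicate 2 is highest for miR-137, miR-138 and miR-138*, and the open triangle is the miR-124 well without product.

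The highest fold changes of the 8 were those of the 2 arms of miR-129, a brain microRNA whose 5′ arm is known to act on potassium channel mRNA in dendrites. For miR-129-3p the Ct values were 26.286, 26.624 and 26.483 in Dicer_WT replicates 1 to 3 and 24.953, 25.841 and 25.958 in Dicer_KO replicates 1 to 3. As relative quantities they were 0.98, 0.949 and 1.08 against 2.95, 1.95 and 1.73. Every Dicer_KO aorta lay above every Dicer_WT aorta, and the Dicer_WT aortas lay within a narrow band. The log2 fold change was 1.11 ± 0.248 (SE, n = 3 each, 95% interval 0.50 to 1.72), higher in 3 of 3 Dicer_KO aortas, with a limma adjusted p = 0.0691 over all assays. Only 14 of the other 376 assays had a larger one. This value sat close to the threshold: over 19 alternative settings the adjusted p ran from 0.0156 to 0.252 and passed in 6, while the log2 fold change stayed between 0.88 and 1.62.

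The other arm, miR-129-5p, gave a higher mean with a wider spread. Its Ct values were 30.614, 30.937 and 29.888 in Dicer_WT and 28.128, 29.341 and 30.715 in Dicer_KO replicates 1 to 3, and the relative quantities were 0.789, 0.772 and 1.64 against 5.28, 2.78 and 1.04. Dicer_KO replicates 1 and 2 lay above all Dicer_WT aortas and replicate 3 lay among them. The log2 fold change was 1.31 ± 0.654 (SE, n = 3 each, limma adjusted p = 0.226, 95% interval -0.30 to 2.92). Both arms were read on the same card, so their Ct difference within an aorta needs no reference RNA. miR-129-3p came up 4.02 ± 0.529 cycles before miR-129-5p in Dicer_WT and 3.81 ± 0.836 cycles before it in Dicer_KO aortas (SD, n = 3 each). The change of -0.20 was within the spread (exact permutation p = 0.9, two-sided, smallest possible 0.1), and it turned to 0.11 without Dicer_KO replicate 1. Cycles of 2 assays also hold their unequal efficiencies, so the difference of about 4 cycles is no ratio of the arms. miR-129-5p comes from 2 hairpins and miR-129-3p was matched to only 1 of them, so their difference is not that of a single hairpin.

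miR-219 and miR-128a were lower by similar amounts. miR-219 is known for driving oligodendrocyte differentiation, and miR-128a, now named miR-128, for limiting neuronal excitability. For miR-219 the relative quantities were 1.17, 0.917 and 0.932 in Dicer_WT and 0.539, 0.651 and 0.504 in Dicer_KO replicates 1 to 3. At Ct values between 29.25 and 30.97 it was one of the later assays. For miR-128a they were 1.09, 1.02 and 0.903 against 0.686, 0.674 and 0.627. In both assays every Dicer_KO aorta lay below every Dicer_WT aorta. The log2 fold changes were -0.83 ± 0.199 for miR-219 and -0.60 ± 0.167 for miR-128a (SE, n = 3 each, limma adjusted p = 0.0746 and 0.101, lower in 3 of 3 aortas each). The values of miR-128a were among the tightest on the array, with a residual SD of 0.108 on the log2 scale, and 370 of the 377 assays had a larger one. Its fold change was close to the array's own median: 129 assays had a lower one and 247 a higher one. For miR-219 these counts were 75 and 301.

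Setting members of the same card against each other within each aorta takes the reference RNAs out of the comparison, and shows unequal change without saying which assay moved. The log2 quantity of miR-129-3p minus that of miR-219, with the Dicer_WT mean at 0, was -0.26, 0.05 and 0.21 in Dicer_WT and 2.45, 1.58 and 1.78 in Dicer_KO aortas. Against miR-128a it was 2.11, 1.53 and 1.47 in Dicer_KO aortas and at most 0.25 in Dicer_WT aortas. Against miR-9 it was 1.31, 0.79 and 1.27 in Dicer_KO aortas and between -0.06 and 0.05 in Dicer_WT aortas. In these 3 contrasts, all with miR-129-3p, the groups did not overlap. Against miR-219 and miR-128a this had to follow, because miR-129-3p lay wholly higher and those assays wholly lower in Dicer_KO aortas. Those contrasts therefore add no separate support. Of 6 contrasts computed, the other 3 overlapped: miR-138 against miR-9, miR-137 against miR-138, and miR-219 against miR-128a. No test is given for these contrasts, because the assays were set against each other after their fold changes were known.

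**Figure D2:**
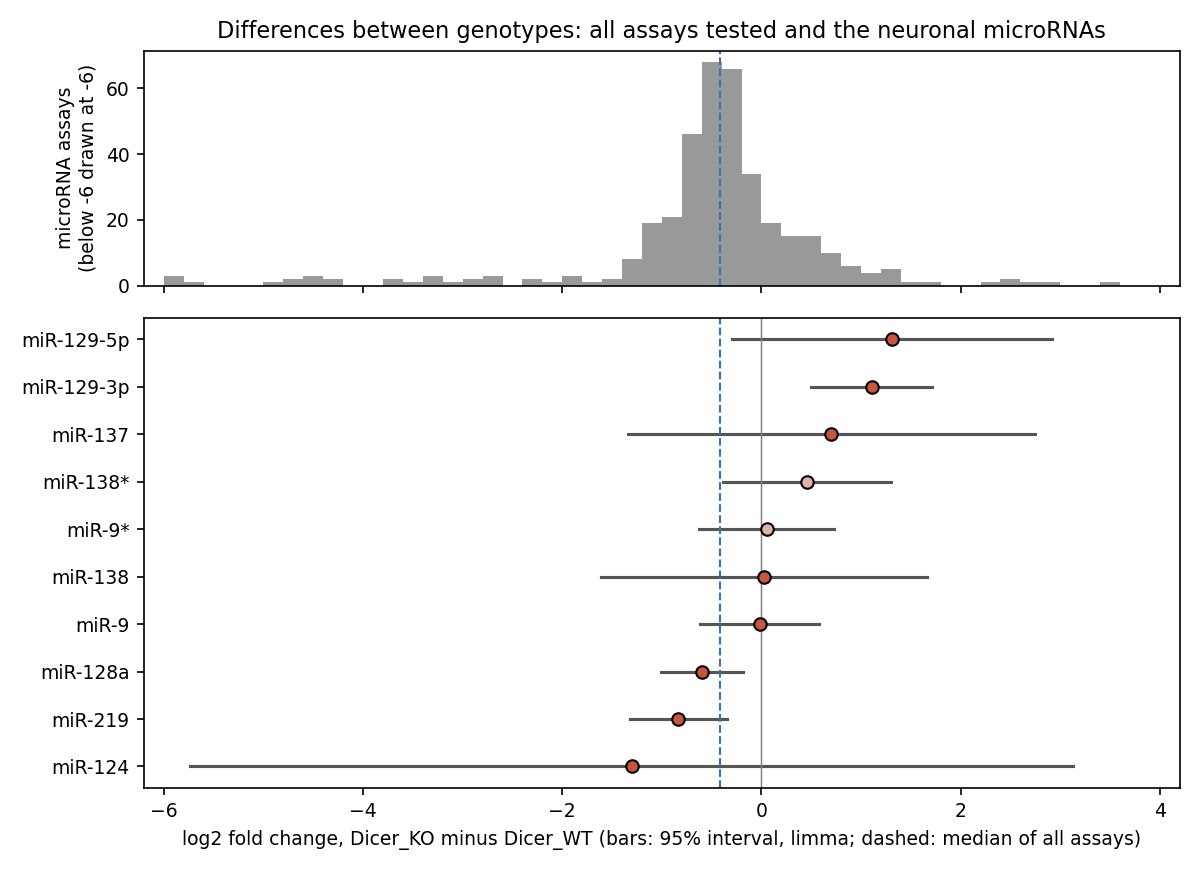
The upper panel is a histogram of the log2 fold changes (Dicer_KO minus Dicer_WT, horizontal axis) of the 377 assays tested, with values below -6 drawn at -6; the lower panel gives the 8 neuronal microRNAs (dark points) and 2 other arms (pale points) with 95% intervals from limma. The dashed line is the median of all assays, -0.42; the intervals of miR-129-3p, miR-219 and miR-128a leave out 0, before any adjustment for the number of assays.

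miR-9, a regulator of neural progenitors and neuron formation, came up between Ct 23.608 and 24.58 and varied least of the 8 between Dicer_WT aortas. Its relative quantities were 0.973, 0.99 and 1.04 in Dicer_WT and 1.19, 1.12 and 0.717 in Dicer_KO replicates 1 to 3. Dicer_KO replicates 1 and 2 were above all Dicer_WT aortas and replicate 3 was below them. The log2 fold change was -0.02 ± 0.244 (SE, n = 3 each, limma adjusted p = 0.949, 95% interval -0.62 to 0.58). Its sign followed the scaling, as it was 0.35 with mean centring and 0.49 with U87 and Y1, control RNAs that the authors' scaling leaves out, as the reference, and it was 0.21 without Dicer_KO replicate 3. The other arm, miR-9*, was read on the other card and gave 1.04, 0.962 and 1.00 against 1.22, 1.29 and 0.706. In the same 2 Dicer_KO aortas it was high and in the same 1 low. The log2 quantity of miR-9 minus that of miR-9* stayed within 0.21 of the Dicer_WT mean in every aorta, and its change of -0.07 was not beyond the spread (exact permutation p = 0.5, two-sided, smallest possible 0.1).

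miR-124, which represses non-neuronal messages in neurons and is among their most abundant microRNAs, was a late signal and was missing in 1 aorta. Its Ct values were 29.161, 30.031 and 28.371 in Dicer_WT and 28.093 and 29.056 in Dicer_KO replicates 1 and 2, and Dicer_KO replicate 3 gave no product (Ct 40). The latest of the other 5 readings was 30.031, and a single well does not show whether the RNA or the reaction was missing. With this well set to Ct 35 the log2 fold change was -1.30 ± 1.80 (SE, limma adjusted p = 0.592), and with it left missing the value turned to 0.81 ± 0.531 (adjusted p = 0.322). The other arm, miR-124*, gave no product in any aorta.

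miR-137 and miR-138 shared another pattern, set by 1 aorta. miR-137 is known from neuronal maturation and synapses, and miR-138 from the size of dendritic spines. For miR-137 the relative quantities were 1.84, 0.527 and 1.03 in Dicer_WT and 1.00, 5.20 and 0.828 in Dicer_KO replicates 1 to 3. For miR-138 they were 1.29, 0.768 and 1.01 against 0.756, 2.82 and 0.494. Dicer_KO replicate 2 was the highest of the 6 aortas in both, and the other 2 Dicer_KO aortas lay within or below the Dicer_WT range. The star arm miR-138*, read on the other card, gave 1.00, 0.949 and 1.05 against 1.15, 2.29 and 0.989, with the same aorta highest. miR-138 comes from 2 hairpins and miR-138* was matched to only 1 of them, Mir138-1, so their difference is not that of a single hairpin. The 2 assays correlated at 0.837 over the 6 aortas. The log2 quantity of miR-138 minus that of miR-138* was -0.60, 0.31 and -1.0 in Dicer_KO replicates 1 to 3. In Dicer_WT aortas this difference lay between -0.30 and 0.36. Its change of -0.43 was not beyond the spread (exact permutation p = 0.4, two-sided, smallest possible 0.1). Over all assays tested, that aorta was the highest for 54 of 377, or 14.3%.

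Between genotypes these 2 microRNAs did not differ beyond that spread. The log2 fold changes were 0.70 ± 0.831 for miR-137 and 0.03 ± 0.667 for miR-138 (SE, n = 3 each, limma adjusted p = 0.538 and 0.978), with 95% intervals of -1.34 to 2.75 and -1.61 to 1.67. Without Dicer_KO replicate 2 they were -0.14 and -0.71. For miR-138*, the value was 0.46 ± 0.344 (adjusted p = 0.356) and 0.09 without that aorta. The residual SD of miR-137 was 1.21 on the log2 scale and that of miR-138 0.964, against a median of 0.34 over all assays, and 36 and 46 assays had a larger one.

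In Dicer_KO replicate 2, microRNAs of some other cell types stood apart as well, and their part in the miR-137 and miR-138 values was not tested. Of the 5 striated muscle assays tested of 7 listed, 4 were lowest of all aortas there, against 13.3% of all assays. The relative quantities of these 4 summed to 2.44 in that aorta, 3.9 and 5.27 in the other Dicer_KO aortas and 3.76 to 4.27 in Dicer_WT aortas. The exception was miR-208, a late assay that was lowest in Dicer_WT replicate 2, where its well gave no product. With it the sums were 3.9, 5.37 and 8.46, and 4.22 to 8.76 in Dicer_WT aortas. miR-208b was not detected in any aorta. Both erythrocyte assays tested, miR-451 and miR-486, and 3 of 4 liver and gut assays were highest there, against 14.3% of all assays. Their sums were 6.28 and 8.38 against 4.1 to 4.18 and 4.97 to 5.46 in the other Dicer_KO aortas. In Dicer_WT aortas these sums ranged from 1.00 to 3.6 and from 2.64 to 6.00. Both endothelial assays, miR-126-3p and miR-126-5p, were also highest there, with a sum of 3.02 against 1.74 and 2.57 in the other Dicer_KO aortas and 1.7 to 2.23 in Dicer_WT aortas. Of the 3 smooth muscle assays tested, 0 were highest and 0 lowest there. Of the myeloid and epithelial assays, 1 of 4 and 2 of 7 were highest there and 0 lowest.

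**Figure D3:**
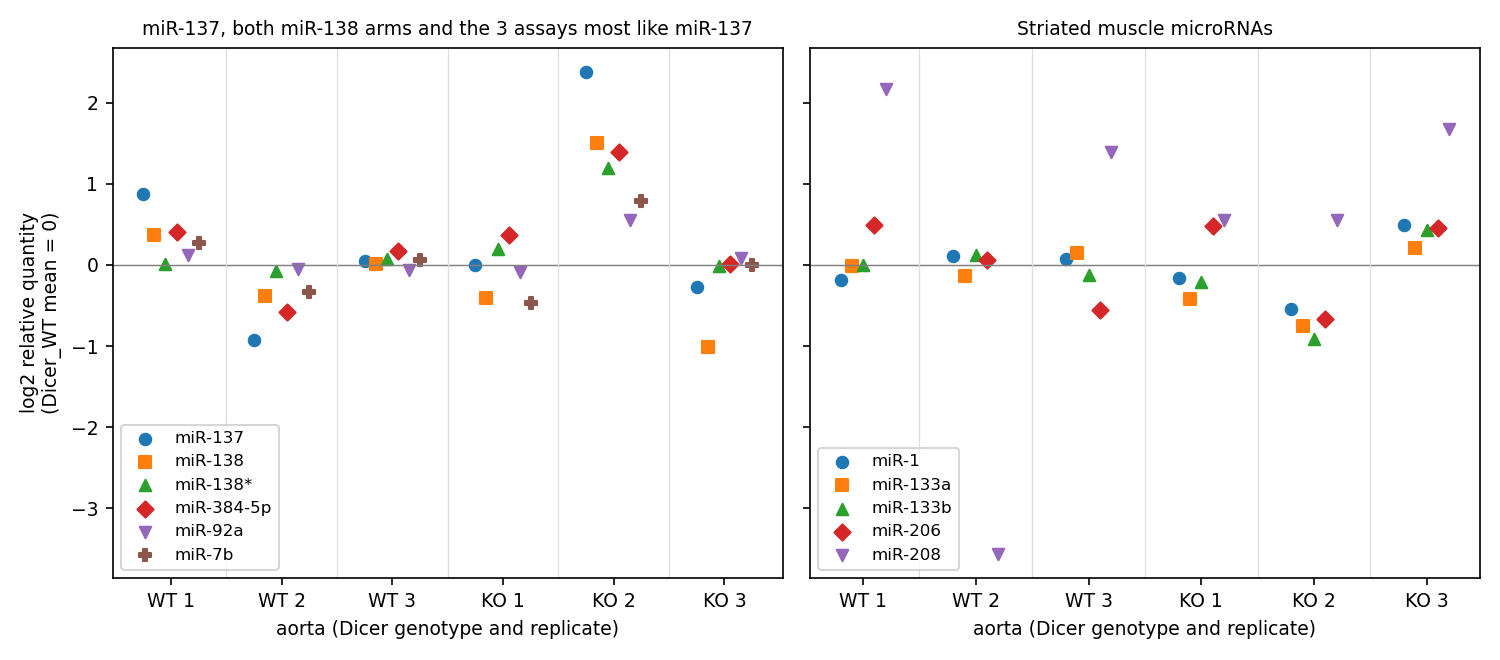
Log2 relative quantity (vertical axis, Dicer_WT mean at 0) in each of the 6 aortas (horizontal axis), 1 marker per assay. On the left, miR-137, both miR-138 arms and the 3 assays most like miR-137 are all highest in Dicer_KO replicate 2; on the right, 4 of the 5 striated muscle assays tested are lowest there, and the miR-208 marker of Dicer_WT replicate 2 is a well without product set to Ct 35.

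Further microRNAs known from neural tissue gave no call, and their direction as a group turned with the scaling. Of 19 listed, 18 were on the arrays and 14 were tested. Of these 0 were called, against 1.86% of all assays called lower and 0.0% higher. The miR-9* and miR-138* assays described above are among the 14. The log2 fold changes were below 0 for 10 of the 14, with a median of -0.37 against -0.42 over all assays. They ran from -1.32 for miR-488, whose value follows the level set for its silent Dicer_KO wells, to 0.46 for miR-138*. Relative to U87 and Y1 only 4 of the 14 were below 0 and the median was 0.15, against 0.16 over all assays. With mean centring 7 were below 0 and the median was 0.0015, against -0.126 over all assays. After quantile normalization 5 were below 0 and the median was 0.351, against 0.0032 over all assays. The groups did not overlap for 3, all lower in Dicer_KO: miR-132, miR-326 and miR-488. Over all assays Dicer_KO lay wholly below Dicer_WT for 32.6%, so 3 of 14 is no more than the background. For miR-488 the lowest Dicer_WT value was -1.203 (log2) and the highest Dicer_KO value -1.213. That Dicer_KO value follows the level set for a silent well, so this narrow separation is no measured difference. Of the 3, miR-132 turned to 0.10 relative to U87 and Y1. miR-124*, miR-153, miR-346 and miR-874 were not detected in any aorta. Of the glial list, miR-219 is a member and miR-338-3p, which acts with it in oligodendrocytes, stood at -0.92 ± 0.270 (SE, limma adjusted p = 0.106), lower in 3 of 3 Dicer_KO aortas. Relative to U87 and Y1 it was at -0.41, and after quantile normalization at -0.265. The sensory and neuroendocrine list held 4 assays, of which 0 were called and 3 were above 0, against 21.8% of all assays above 0. They ran from -0.21 for miR-183 (0.30 relative to U87 and Y1) to 2.49 ± 1.19 for miR-96 (SE, limma adjusted p = 0.226). Relative to U87 and Y1, with mean centring and after quantile normalization all 4 were above 0. The groups of miR-96 overlapped, and its value follows the level set for the undetected well of Dicer_WT replicate 1. miR-182 stood at 1.70 ± 0.327 (SE, limma adjusted p = 0.0626), with every Dicer_KO aorta above every Dicer_WT aorta.

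The assays whose 6 values ran most like those of a member differed from member to member. Likeness was Pearson's r of log2 relative quantity over the 6 aortas, among 323 other assays detected in all, and it is given as a description, since group differences and 1 aorta alone can set it. miR-9 was most like miR-9* (0.956), then miR-183 (0.91) and miR-671-3p (0.891). miR-137 was most like miR-384-5p (0.966), miR-92a (0.90) and miR-7b (0.895), and all 3 were highest in Dicer_KO replicate 2. For miR-138 the nearest were miR-323-3p (0.885), miR-141 (0.88) and miR-138* (0.837). miR-219 was nearest to miR-434-3p (0.987), miR-340-5p (0.969) and miR-342-3p (0.969), and miR-128a to miR-93* (0.993), miR-425* (0.993) and miR-103 (0.989). All 6 of these had a log2 fold change below 0, from -1.33 for miR-342-3p to -0.48 for miR-93*. miR-129-3p was nearest to miR-182 (0.901), miR-455 (0.894) and miR-33* (0.781), and miR-129-5p to miR-721 (0.792), miR-760 (0.772) and miR-455 (0.77).

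**Figure D4:**
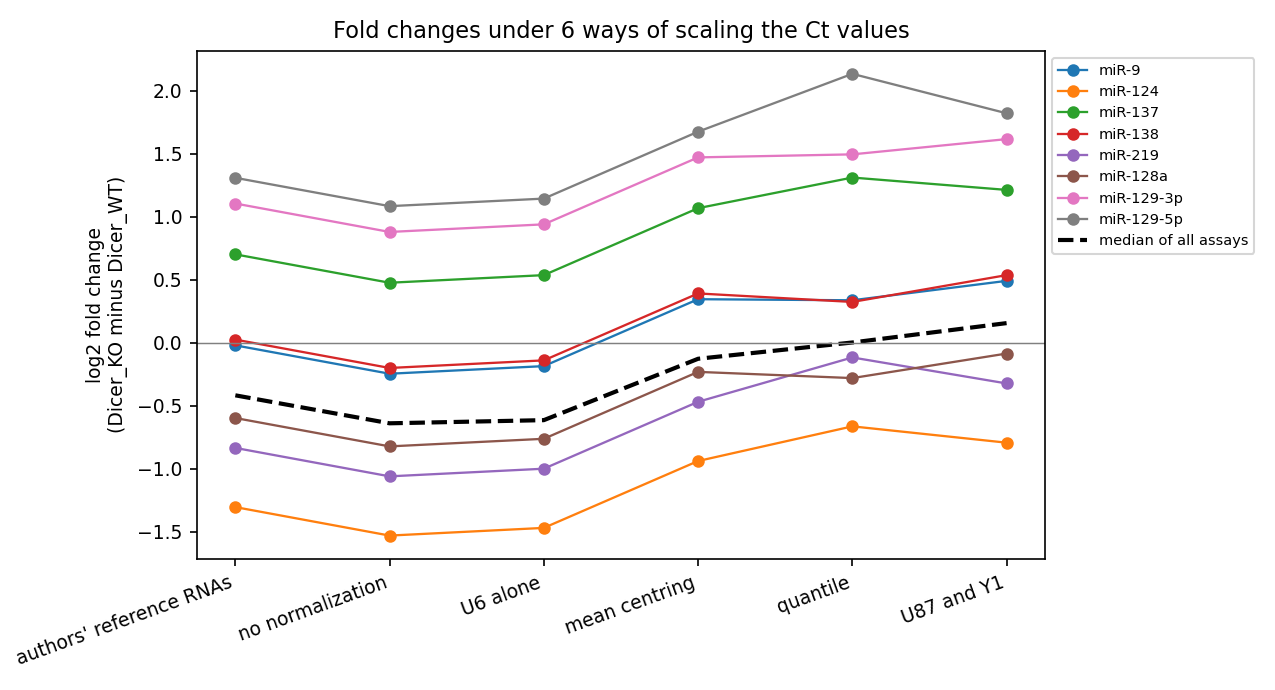
Log2 fold change (Dicer_KO minus Dicer_WT, vertical axis) of each of the 8 neuronal microRNAs under 6 ways of scaling the Ct values (horizontal axis), with the median of all assays tested as a dashed line. The members share a card, so their order can change only after quantile normalization, where miR-219 stands above miR-128a and miR-9 above miR-138. miR-9 and miR-138 change sign between scalings.

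All 8 members were read on the same card, so a change of reference must move them by the same amount. Quantile normalization moved them unequally, from 0.30 for miR-138 to 0.825 for miR-129-5p (log2). The median over all assays ran from -0.64 without normalization to 0.16 relative to U87 and Y1. In the 6 scalings both miR-129 arms and miR-137 stayed above 0 and miR-219, miR-128a and miR-124 below 0. The values nearest to 0 were -0.08 for miR-128a, relative to U87 and Y1, and -0.12 for miR-219 (limma adjusted p = 0.771), after quantile normalization. Relative to U87 and Y1, miR-219 was at -0.32.

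The fold changes in the authors' deposited table differ from those above where 1 aorta stands apart. For 515 of 517 assays, all 8 members included, the deposited fold equals the ratio of arithmetic means of the relative quantities to within 0.001 on the log2 scale. For miR-137 the authors' deposited table gives 2.07, and the ratio of geometric means, which underlies the log2 values, was 1.63. For miR-138 the authors' deposited table gives 1.33 against 1.02. For miR-124 the authors' deposited table gives 1.06, with the silent well counted near 0, against a ratio of geometric means of 0.128 with that well taken at Ct 40. For miR-219, where the aortas of a group lay close together, the authors' deposited table gives 0.561 and the ratio of geometric means was 0.561.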

How the data were processed

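MicroRNAs were read in 6 aortas, 3 per genotype, on 2 cards of 335 and 182 microRNA assays. The Ct values are those the authors deposited, after reverse transcription and preamplification with TaqMan kits per the labels. For the instrument, threshold and software the entry is: not given in the sources used here. A decimal comma in 5 cells, none of a member, was read as a point. The relative quantities, a linear ratio, and the fold changes are the authors' deposited values. As the values show, log2 of this deposited ratio is the mean Ct of U6, snoRNA135 and snoRNA202 (with snoRNA429 on the second card) minus the assay's Ct, centred on the Dicer_WT mean.

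Undetected wells (Ct 35 or later) were set to Ct 35. The 377 assays with 2 or more detected wells in a group were fitted in R 4.3.3 with lmFit and eBayes of limma 3.58.1. Two-sided p-values were adjusted by Benjamini-Hochberg over the 377 with a threshold of 0.05. This procedure was run on simulated data with independent noise for each assay. Those data held no effect shared by the assays of an aorta, so they cannot show how such effects bear on the calls. Arms of the same microRNA were compared by exact permutation tests (scipy 1.17.1). The labels call the replicates biological, and each aorta was taken as 1 mouse. The number of arrays limits the precision. No scan date or lot is given, so no batch was tested.

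The members, lists and tests were chosen with earlier results of these data known. Named were all members, the other arms of their hairpins, assays sharing a seed with a member, the 3 assays most like each member, and the lowest and highest of each list described. Named beyond this rule, after their values were seen, were assays of lists whose groups did not overlap or that were not detected, the striated muscle assays plotted, miR-142-5p and miR-145. Of the lists, those of smooth muscle, endothelium, myeloid cells and epithelium (3, 2, 4 and 7 assays tested) had 0 calls, with median log2 fold changes of -0.42, 0.23, -0.88 and -0.18. The myeloid median hides a split: miR-223 and miR-511 stood at -1.66 and -1.99, and miR-142-3p and miR-142-5p at -0.07 and -0.09. Smooth muscle ran from -0.76 for miR-143 to 0.40 for miR-145*, and epithelium from -0.84 for miR-429 to 0.86 for miR-205. Liver and gut ran from -0.47 for miR-215 to 1.36 for miR-122, and striated muscle from -0.32 for miR-133a to 0.93 for miR-208. Dicer_KO lay wholly lower for miR-223, miR-511, miR-143, miR-145 and miR-429, and for 32.6% of all assays. Relative to U87 and Y1 the smooth muscle and epithelium medians turned to 0.096 and 0.33, and 2 of the 4 myeloid assays were above 0.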

Additional observations from a re-analysis of the deposited data

How the results depend on the processing

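With 3 aortas a group, most member values were limited by single aortas. Of the log2 fold changes, those of miR-219, miR-128a, miR-138* and both miR-129 arms kept their sign in all 19 alternatives run for each. miR-9 (-0.24 without normalization) turned to 0.35 with mean centring, 0.49 relative to U87 and Y1, 0.34 after quantile normalization, 0.0079 without Dicer_WT replicate 3 and 0.21 without Dicer_KO replicate 3. miR-9* turned to -0.13 without normalization, -0.20 relative to U6 alone, -0.065 without Dicer_KO replicate 1 and -0.11 without Dicer_KO replicate 2 (0.33 without Dicer_KO replicate 3). miR-124 turned to 0.81 with undetected wells missing and, equally, without Dicer_KO replicate 3 (-2.53 without Dicer_KO replicate 1). miR-137 turned to -0.14 without Dicer_KO replicate 2 (1.19 without Dicer_KO replicate 3). miR-138 turned to -0.20 without normalization, -0.14 relative to U6 alone, -0.16 without Dicer_WT replicate 2 and -0.71 without Dicer_KO replicate 2 (0.55 without Dicer_KO replicate 3). miR-129-3p was called higher (1 of the 8 members) with mean centring, relative to U87 and Y1, after quantile normalization, at a Ct cutoff of 32, over assays detected in all 6 aortas and without Dicer_KO replicate 1. The count of members called lower was 0 throughout. The median of the 8 was 0.52 relative to U87 and Y1, and from -0.37 to 0.68 with 1 aorta left out. Assays called lower over the array numbered 24 at a Ct cutoff of 32, 13 with Ct 40 as measured, 20 over assays detected in all 6 aortas, 20 with an intensity trend and 5 to 55 with 1 aorta left out, against 7. Those called higher numbered 1 with mean centring, 2 relative to U87 and Y1, 3 after quantile normalization, 2 at a Ct cutoff of 32, 2 over assays detected in all 6 aortas, 1 with an intensity trend and 0 to 9 with 1 aorta left out, against 0. Over assays detected in all 6 fewer assays were tested, and a Ct cutoff changes both the number tested and the level set for undetected wells, which moved miR-124 to -0.30 at a cutoff of 32 and -2.30 at 38. The cause of the changed counts was not tested. The difference between the miR-129 arms ran from -0.68 to 0.11 with 1 aorta left out. The groups share replicate numbers, but the deviations of same-numbered aortas correlated at 0.179, -0.101 and 0.152 over 330 assays, so the numbers were not taken as pairs. With the replicate number as a block, 7 assays were called lower, 0 higher and 0 members. The difference between the miR-129 arms is -0.20 there by construction, since averaging same-numbered differences leaves the mean unchanged. A sign-flip test over these 3 differences gave an exact p = 1.0, and so few differences cannot give a small p. miR-124 could not be given over assays detected in all 6 aortas.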
